A study of Rattus norvegicus with 192 samples.

Results

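The hippocampus of 9 rats exposed to ethanol before birth was compared with that of 15 rats from the other prenatal diets, 39 days after an adult injection of adjuvant. The 15 rats were 8 controls and 7 pairfed rats, pooled with equal weight for each diet. Rats were chosen by the diet, injection, day and tissue in their sample titles, with 1 array per rat, so the 24 arrays are part of 96 hippocampus arrays and of 192 arrays in the series. Ethanol rats were daughters of dams on a liquid diet that drew 36% of its calories from ethanol, given from gestation day 1 to day 21. Pairfed dams got the same calories without ethanol, with maltose-dextrin in its place, in the amount that an ethanol partner had eaten, and control dams ate chow freely. All 24 rats were female Sprague Dawley rats, weaned on postnatal day 22, that received complete Freund's adjuvant (0.1 ml at 12 mg/ml) in the skin at the base of the tail at 50 to 65 days of age. Adjuvant can cause an inflammatory arthritis in rats. Rats of all 3 diets received the injection, so the comparison is between diets among injected rats, and no arthritis score of a rat was analysed here. The submitters left out 1 pairfed rat of this set for suspected contamination. The labels give neither the litter of each rat nor whether blood vessels were rinsed, and p-values treat rats as independent.

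The hippocampus is a layered cortex of granule cells and pyramidal cells with a network of inhibitory interneurons, and it serves memory and restrains the hormonal stress response. It is a region known to be sensitive to alcohol during development. Adjuvant arthritis is a model of chronic joint inflammation in which immune signals also reach the brain, and its joint signs ease with time.

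Values are log2 signals after background correction and normalization, in which 1 unit is a doubling. A probe counted as detected on an array at a detection p below 0.05, and the ethanol arrays detected 8510 to 10649 probes, against 8140 to 10941 on the other 15. The arrays lay on 8 chips, of which 7 held both ethanol rats and rats of the other diets, and chip was a term of the fit. The median probe had a standard deviation of 0.38 between ethanol rats, 0.40 between control rats and 0.40 between pairfed rats. Repeat arrays of a single rat had a median standard deviation of 0.34 in an ethanol rat, 0.31 in a control rat and 0.35 in a pairfed rat. The spread between rats was thus little larger than that between arrays of a single rat.

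Of 15320 probes tested, none passed an adjusted p below 0.05 between ethanol rats and the other diets (limma with Benjamini-Hochberg adjustment), which is 0% of the probes, and the smallest adjusted p was 0.108. At an unadjusted p below 0.05 there were 868 probes (5.67%), of which 430 lay higher in ethanol rats (2.81%) and 438 lower (2.86%). Differences are therefore given below as measured values and not as changes. The median standard error of a difference was 0.17 and the median half-width of its 95% interval 0.34. On data simulated with the real means and spreads, in which 200 probes were changed, the fit recovered 41.9% of 1.5-fold and 88.2% of 2-fold differences. It recovered 6.23% of the smallest differences simulated, which were below 1.5-fold, as most differences described here are. The simulated noise was independent between probes, and variation that probes of an array share was not simulated. These shares therefore describe the simulated data and may differ for the real arrays. No probe of the 15320 separated all 9 ethanol rats from all 15 others (0 probes).

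The probe with the smallest p has no gene name in the annotation used here. This probe, ILMN_1371581, had log2 signals of 8.88, 9.58 and 10.23 in ethanol rats (lowest, median and highest), against 9.83, 10.31 and 11.06 in the other rats. All 9 ethanol rats lay below the median of the others, although the groups overlapped. The difference was -0.76 ± 0.16 (SE, n = 9 and 15, limma adjusted p = 0.108), and it was negative on 7 of 7 chips. It was -0.91 against control rats and -0.61 against pairfed rats. It passed at 0.05 when ethanol replicate 1, 2 or 7, control replicate 3 or pairfed replicate 6 was left out. Over all alternatives its limma adjusted p ran from 0.0173, without ethanol replicate 1, to 0.982. Without ethanol replicate 9 the smallest limma adjusted p of any probe was 0.753.

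The 12 named genes with the smallest p among those higher in ethanol rats had fold differences of 1.42 to 1.72 and adjusted p-values of 0.437 to 0.569. Asb1, a substrate adaptor of a ubiquitin ligase, led them. Its log2 signals were 5.16, 6.10 and 6.47 in ethanol rats (lowest, median and highest), against 4.82, 5.37 and 6.46 in the other rats. Of the ethanol rats, 8 of 9 lay above the median of the others, and its probe was detected in 7 ethanol rats, 4 control rats and 1 pairfed rat. The difference was 0.66 ± 0.16 (SE, limma adjusted p = 0.437). Leaving out ethanol replicate 7 gave 0.80 with a limma adjusted p of 0.0384. In no other alternative did Asb1 pass in this contrast, and its limma adjusted p rose as high as 0.982. Against pairfed rats the difference was 0.94, and against control rats 0.39.

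Pxmp2, which forms a channel in the peroxisomal membrane, was at 8.16, 8.65 and 9.04 in ethanol rats, against 7.37, 7.91 and 8.45 in the other rats. Every ethanol rat exceeded the median of the others. The difference was 0.58 ± 0.15, with 0.54 against control and 0.61 against pairfed rats, and it was positive on 6 of 7 chips. Fkbp7, a folding enzyme of the endoplasmic reticulum, was at 6.16, 6.59 and 6.99 in ethanol rats, against 5.06, 5.82 and 6.78 in the others. Its probe was detected in 9 of 9 ethanol rats, 5 of 8 control rats and 5 of 7 pairfed rats, and the difference of 0.71 ± 0.19 was positive on 7 of 7 chips. Smtn, a cytoskeletal protein of contractile smooth muscle, was at 5.64, 6.48 and 7.06 in ethanol rats, against 4.77, 5.75 and 6.45 in the other rats. This was the largest of the 12 differences, at 0.78 ± 0.22.

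Marchf2, a membrane-bound ubiquitin ligase, was at 9.22, 10.07 and 10.54 in ethanol rats, against 9.08, 9.38 and 10.05 in the other rats. A second Marchf2 probe lay on the same side, with a difference of 0.34 ± 0.16 beside 0.56 ± 0.15 for the first. Ggh, which trims the glutamate tail of folates, was at 9.12, 9.68 and 10.05 in ethanol rats, against 8.31, 9.12 and 9.66 in the others, a difference of 0.50 ± 0.14. Uxt, a small chaperone-like protein of transcription complexes, was at 8.04, 8.81 and 8.99 in ethanol rats, against 6.48, 8.11 and 9.10 in the others. The highest Uxt value of all 24 rats was thus in a control rat, and the difference was 0.73 ± 0.21. Ppp1r14b, an inhibitor of protein phosphatase 1, was at 9.85, 10.41 and 10.998 in ethanol rats, against 9.21, 9.98 and 10.56 in the others, a difference of 0.52 ± 0.16.

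Another 3 of the higher genes were dim, while Rplp1, which is bright, is described with the ribosomal proteins. Mybpc2, a thick-filament protein of fast skeletal muscle, had 4.51, 5.52 and 5.94 in ethanol rats, against 4.45, 4.79 and 5.57 in the other rats. It was detected in 7 ethanol rats, in 0 of 8 control rats and in 2 pairfed rats. Prtn3, a serine protease of neutrophil granules, had 4.70, 5.54 and 6.16 in ethanol rats, against 4.55, 4.81 and 5.36 in the others, with detection in 5 ethanol rats, 0 control rats and 1 pairfed rat. Smoc2, a secreted calcium-binding matrix protein, had 5.55, 6.08 and 6.80 in ethanol rats, against 4.63, 5.45 and 6.50 in the others. Their differences were 0.55 ± 0.15 for Mybpc2, 0.63 ± 0.19 for Prtn3 and 0.71 ± 0.21 for Smoc2, and near the detection limit such values understate a fold.

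**Figure D1:**
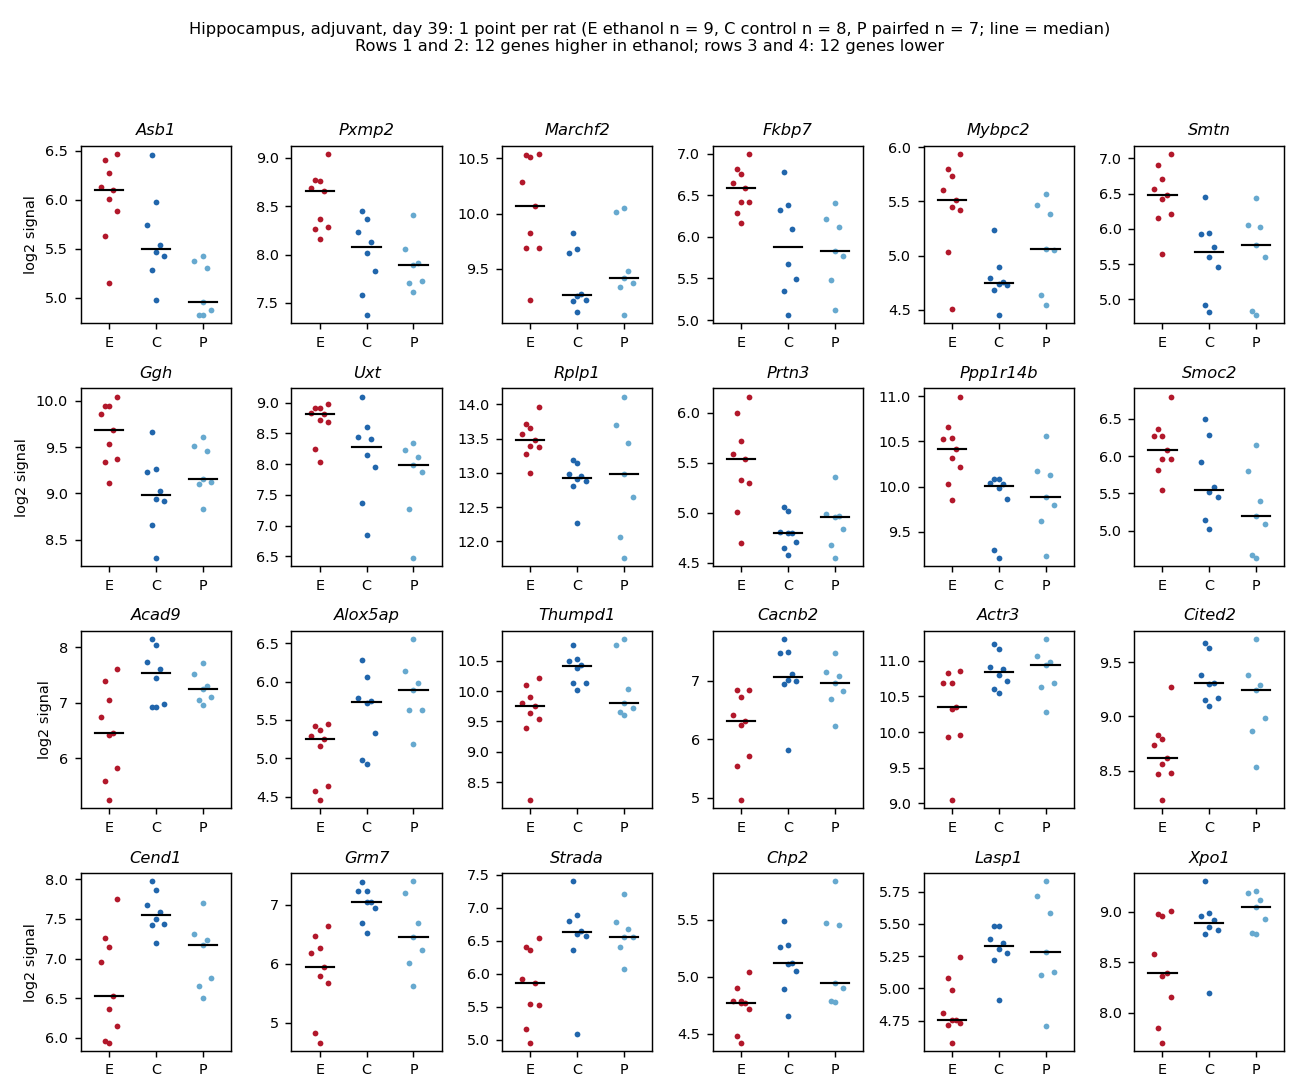
Log2 signal (y axis) of the 12 named genes with the smallest p among those higher in ethanol rats (upper 2 rows) and the 12 among those lower (lower 2 rows), with 1 point per rat for ethanol (E, 9 rats), control (C, 8 rats) and pairfed (P, 7 rats) and a line at each median. In every panel the ethanol points overlap those of the other diets, and in the Asb1 panel the 9 ethanol rats run from 5.16 to 6.47 beside 4.82 to 6.46 in the other 15.

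The 12 named genes with the smallest p among those lower in ethanol rats had adjusted p-values of 0.437 to 0.542, and the 10 of them detected on ethanol arrays had fold differences of 1.40 to 1.89. Acad9, a mitochondrial protein needed to assemble respiratory complex I, had log2 signals of 5.24, 6.46 and 7.61 in ethanol rats (lowest, median and highest), against 6.92, 7.31 and 8.15 in the other rats. The ethanol rats were widely spread, with a standard deviation of 0.81 beside 0.41 in the others, and 7 of 9 lay below the median of the others. The difference was -0.90 ± 0.22 (SE, limma adjusted p = 0.437). Without background correction it was -0.43, so its size depended on that step. Grm7, a presynaptic glutamate receptor that damps transmitter release, had 4.66, 5.95 and 6.65 in ethanol rats, against 5.62, 6.94 and 7.40 in the others. All 9 ethanol rats lay below the median of the others, and the difference was -0.92 ± 0.26, with -1.19 against control rats and -0.65 against pairfed rats.

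Cacnb2, an auxiliary subunit of voltage-gated calcium channels, had 4.96, 6.31 and 6.85 in ethanol rats, against 5.81, 7.01 and 7.71 in the other rats. Again all 9 ethanol rats lay below the median of the others, and the difference was -0.80 ± 0.21. Cend1, a neuronal protein tied to cell cycle exit, had 5.94, 6.53 and 7.75 in ethanol rats, against 6.50, 7.42 and 7.97 in the others, a difference of -0.71 ± 0.20. Alox5ap, the protein that hands arachidonic acid to 5-lipoxygenase for leukotriene synthesis, had 4.45, 5.25 and 5.45 in ethanol rats, against 4.93, 5.75 and 6.55 in the others. It was detected in 2 of 9 ethanol rats, 5 of 8 control rats and 6 of 7 pairfed rats, and its difference of -0.74 ± 0.19 was negative on 7 of 7 chips.

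Actr3, a subunit of the complex that nucleates branched actin, had 9.04, 10.35 and 10.86 in ethanol rats, against 10.28, 10.88 and 11.31 in the other rats. Its difference was -0.52 ± 0.14, almost the same against control rats (-0.54) as against pairfed rats (-0.50). Cited2, a co-regulator that competes for the transcriptional partners CBP and p300, had 8.23, 8.62 and 9.27 in ethanol rats, against 8.53, 9.29 and 9.71 in the others, a difference of -0.60 ± 0.17. Thumpd1, an RNA-binding adaptor for tRNA acetylation, had 8.20, 9.75 and 10.21 in ethanol rats, against 9.60, 10.14 and 10.86 in the others. The lowest Thumpd1 value, in ethanol replicate 9, stood well below the next ethanol rat at 9.40, and the difference was -0.56 ± 0.14. Strada, a pseudokinase that activates the kinase LKB1, had 4.95, 5.86 and 6.54 in ethanol rats, against 5.09, 6.61 and 7.40 in the others, a difference of -0.75 ± 0.22. Xpo1, the main receptor for protein export from the nucleus, had 7.70, 8.39 and 9.01 in ethanol rats, against 8.20, 8.93 and 9.30 in the others, a difference of -0.49 ± 0.14.

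Chp2, an EF-hand partner of sodium-proton exchangers, and Lasp1, an actin-binding LIM protein, were detected on 0 of the 9 ethanol arrays. Chp2 was detected in 3 of the 15 other rats and Lasp1 in 4. Measured means were 4.74 in ethanol and 5.13 in other rats for Chp2, and 4.85 in ethanol and 5.32 in other rats for Lasp1. Since the ethanol side is only a bound and the other side lay below the lowest detected signal of the ethanol arrays on average, no fold is given for them.

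All 24 genes lay on the same side of both diets: the 12 higher ones exceeded control and pairfed rats, and the 12 lower ones lay below both. The choice of genes largely sets this, since they were picked by their p against the mean of these same diets. Without background correction the 24 differences had a median of 0.50 times their size and all kept their side. The same contrast was read in other arrays of the study, whose own differences were not used to choose the genes. In saline rats at day 39 (6 per diet) 4 of the 12 higher genes and 3 of the 12 lower genes lay on the same side, and the differences ran from -0.25 to 0.23 for the higher genes and from -0.19 to 0.42 for the lower ones. In adjuvant rats at day 16 (9 per diet) 9 of the 12 higher and 8 of the 12 lower genes were on the same side. In the prefrontal cortex of adjuvant rats at day 39 it was 8 of 12 and 8 of 12. Most of these cortex arrays came from the same rats as the hippocampus arrays, so cortex is not an independent set of rats. Acad9 had the largest cortical value, at -0.51, and Pxmp2 the largest positive one, at 0.34.

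**Figure D2:**
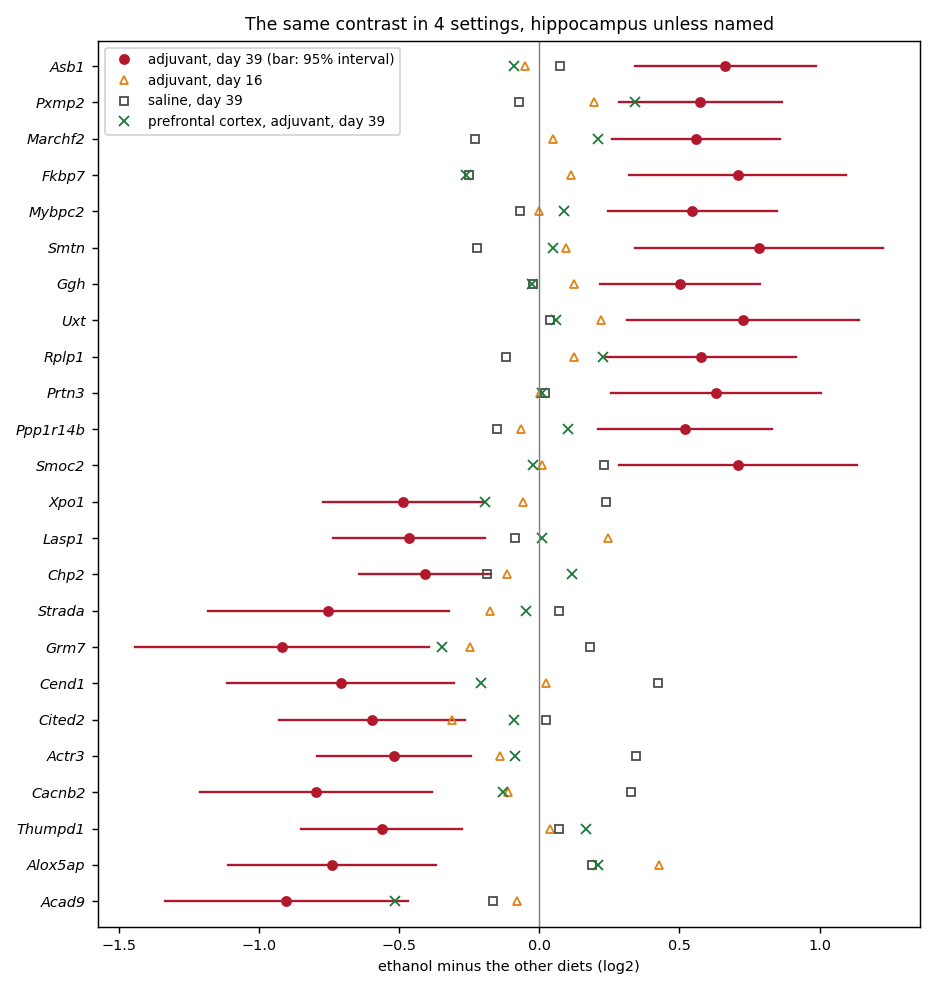
Ethanol minus the other diets on the log2 scale (x axis) for the 24 genes (y axis), in hippocampus of adjuvant rats at day 39 (filled circle with its 95% interval), adjuvant rats at day 16 (triangle), saline rats at day 39 (square) and in prefrontal cortex of adjuvant rats at day 39 (cross). The filled circles chose the genes, and the other symbols run from -0.51 for Acad9 in cortex to 0.43 for Alox5ap at day 16.

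Whether the diet difference depended on the injection was tested directly. The difference between adjuvant and saline rats at day 39 had 0 calls of 15320 (0%), 913 probes at an unadjusted p below 0.05 and a smallest adjusted p of 0.421. The 3 named genes with the smallest p were Pold4, a subunit of DNA polymerase delta, Actr3 and Zdhhc6, a protein palmitoyltransferase. Pold4 had a diet difference of 0.39 in adjuvant rats and -0.64 in saline rats, Actr3 of -0.52 and 0.34, and Zdhhc6 of -0.44 and 0.67. The difference between day 39 and day 16 in adjuvant rats also had 0 calls (0%), with 670 probes at an unadjusted p below 0.05 and a smallest adjusted p of 0.362. It was led by Alox5ap, with -0.74 at day 39 and 0.43 at day 16, Lasp1, which is a bound at day 39, and Tmco6, with -0.28 at day 39 and 0.67 at day 16. A second Tmco6 probe read 0.07 at day 39, so the probes disagreed.

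Set against control rats alone, ethanol rats had 1122 probes (7.32%) at an unadjusted p below 0.05 (limma). Of these, 2 were called, 0.0131% of the probes, and both are unnamed. ILMN_1371581 was 0.91 lower on the log2 scale in ethanol rats, and ILMN_1362303 was 0.99 higher. ILMN_1362303 read 6.88, 7.34 and 7.80 in ethanol rats (lowest, median and highest), against 4.91, 6.64 and 7.32 in control rats and 6.27, 7.05 and 7.81 in pairfed rats. Both calls were lost with median scaling, array weights, all arrays, the 24 arrays alone or the hemoglobin covariate, and when ethanol replicate 4, 5, 8 or 9 or control replicate 1, 4, 6 or 7 was left out. ILMN_1371581 alone was lost without control replicate 2 or 8, and ILMN_1362303 alone without background correction, on the authors' values or with trended spread. The named genes with the smallest p in this contrast were Thumpd1 (-0.72), Cend1 (-0.97) and Acad9 (-1.02). Against pairfed rats alone there were 0 calls (0%), 831 probes at an unadjusted p below 0.05 and a smallest adjusted p of 0.0924. Its leading named genes were Asb1 (0.94), Rps14 (0.98), a protein of the small ribosomal subunit, and ST7 (1.201).

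The pooled diets themselves differed in 1 called probe, 0.00653% of the probes. At an unadjusted p below 0.05 (limma) they differed in 1200 probes (7.83%), more than the 868 (5.67%) between ethanol rats and the pooled diets. Arfgap1, which switches off the small GTPase ARF1 at the Golgi, was at 5.30, 7.13 and 7.93 in pairfed rats, against 7.38, 8.12 and 8.28 in control rats. The difference was -1.23 ± 0.24 (pairfed minus control, limma adjusted p = 0.0289), and ethanol rats, at 7.28, 7.62 and 8.57, lay between them by their median. The call was lost with median scaling, array weights, all arrays or the 24 arrays alone, and without control replicate 1, 2, 5, 6 or 7 or pairfed replicate 2, 3 or 5, and without background correction the difference was -0.68. Rps24 read 7.83, 9.07 and 9.31 in pairfed rats, against 7.11, 7.80 and 8.95 in control rats, a difference of 1.05 without a call. Rps14 and ST7 were near equal in ethanol and control rats (differences of 0.01 and 0.01), and pairfed minus control was -0.97 for Rps14 and -1.19 for ST7, neither of them called. Against the pooled diets ethanol rats differed by 0.49 for Rps14 and 0.61 for ST7.

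Gene groups were described with 42 lists of cell types and functions, by how many tested members lay higher or lower in ethanol rats, beside 49.9% higher and a median difference of -0.00058 over all probes. Because no probe was called, 0 members of every list were called. List medians ran from -0.26 to 0.32. In bulk tissue fewer cells of a type and less RNA per cell cannot be told apart.

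Markers of neurons lay mostly lower. Of 12 tested interneuron markers 11 lay lower in ethanol rats and 1 higher, with a median of -0.26. An unadjusted p below 0.05 (limma) was reached by 2 of the 12 (16.7%, against 5.67% of all probes), a small number of genes. Npy, the peptide neuropeptide Y, had 9.29, 10.04 and 10.19 in ethanol rats (lowest, median and highest), against 9.16, 10.27 and 10.97 in the other rats. All 9 ethanol rats lay below the median of the others, but the difference of -0.42 ± 0.18 was -0.67 against control rats and -0.17 against pairfed rats. Vip, the vasoactive intestinal peptide, had a difference of -0.43 ± 0.20, while Cck, the one marker on the other side, had 0.01. General neuronal genes were lower in 12 of 15, with a median of -0.17. Among them Syt1, the calcium sensor of vesicle release, had 11.81, 12.96 and 13.39 in ethanol rats, against 12.34, 13.16 and 13.84 in the others, a difference of -0.47 ± 0.18. Nefm, a neurofilament subunit, had -0.31 ± 0.15. In saline rats at day 39 the neuronal median was 0.16 and the interneuron median -0.04, and no test compares these with the adjuvant rats.

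Markers of the hippocampal subfields had list medians of smaller size. Granule cell markers were lower in 3 of 4 (median -0.15), with Prox1, their defining transcription factor, at -0.42 ± 0.21 and Calb1 at -0.27 ± 0.17. CA1 markers were lower in 5 of 6 (median -0.08, Ccn3 at -0.28 ± 0.23, Fibcd1 at -0.22 ± 0.18), but their median was -0.33 against control rats and 0.12 against pairfed rats. Lower values were also read for CA3 and CA2 markers in 6 of 8 (median -0.10, Slc39a6 at -0.33 ± 0.17, Amigo2 at -0.23 ± 0.16). Detected on all 24 arrays were 2 of 4 granule cell, 2 of 6 CA1 and 5 of 8 CA3 and CA2 markers. Among them were Calb1, Ccn3, Wfs1, Pcp4 and Bok. The same held for 8 of 10 striatum and 4 of 6 neocortex markers, so detection does not tell these tissues apart. Among markers of tissue near the hippocampus, those of the thalamus were lower in 3 of 5 (median -0.01, Tcf7l2 at -0.25 and Ptpn4 at -0.05), with medians of -0.28 against control rats and 0.12 against pairfed rats. Neocortex markers were lower in 4 of 6 (median -0.11, Fezf2 at -0.37 and Lamp5 at -0.29). Striatum markers were lower in 8 of 10 (median -0.03, Rgs9 at -0.42 and Pde10a at -0.16), with medians of 0.06 against control rats and -0.22 against pairfed rats. Pairfed replicate 5 stood apart in this list, with a mean of 9.19 beside 7.63 to 8.05 in ethanol rats, 7.24 to 7.94 in control rats and at most 8.20 in the other pairfed rats. Without this rat 6 of 10 striatum markers were higher in ethanol rats, and the median was 0.04.

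Glial and immune cell markers lay mostly higher. Microglia markers were higher in 12 of 14 (median 0.22), with Fcer1g, an adaptor of activating receptors, at 0.35 ± 0.19, while Tmem119, detected in 6 of 24 rats, was at -0.31 ± 0.17. The mean of the list was 7.81, 7.98 and 8.35 in ethanol rats, against 7.53, 7.84 and 8.36 in the other rats, and 8 of 9 ethanol rats exceeded the median of the others. Astrocyte markers were higher in 9 of 12 (median 0.17, Aldoc at 0.32 ± 0.17 and Cst3 at 0.23 ± 0.15). The astrocyte median was 0.07 against control rats and 0.09 against pairfed rats, and 0.10 with median scaling. Oligodendrocyte markers were higher in 14 of 21 (median 0.10), led by Olig2 at 0.43 ± 0.16 and Enpp6 at 0.45 ± 0.19, which were detected in 8 and 11 of 24 rats. Precursor markers were lower in 3 of 5 (median -0.10), with Pdgfra, their growth factor receptor, at -0.56 ± 0.26 and Cspg4 at 0.19 ± 0.19. The precursor median was 0.04 against control rats and -0.14 against pairfed rats.

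Antigen presentation genes were higher in 17 of 22 (median 0.21), and 5 of them (22.7%, against 5.67% of all probes) reached an unadjusted p below 0.05, all on the higher side. In saline rats at day 39, 1 of these 5 was higher. The lowest member, RT1-A1 of class I, named after its value was seen, had -0.90 ± 0.59. RT1-Da, the alpha chain of a class II molecule, had 6.62, 8.65 and 9.43 in ethanol rats (lowest, median and highest), against 5.67, 7.37 and 8.80 in the other rats. Of the ethanol rats 7 of 9 lay above the median of the others, and both groups were wide, with standard deviations of 0.86 in ethanol and 0.84 in other rats. The difference of 1.01 ± 0.36 (2.01-fold, limma adjusted p = 0.693) was positive on 7 of 7 chips, and the value in saline rats was -0.69. Psmb8, an inducible proteasome subunit, was at 0.44 ± 0.18. The other 3, named after their values were seen, were Cd74 at 0.53, Psmb10 at 0.35 and RT1-DMb at 0.35. RT1 genes differ between rat haplotypes and resemble each other, so that a probe can read several of them, which was not tested.

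Other immune lists lay nearer to the background. Interferon response genes were higher in 10 of 15 (median 0.11, Gbp2 at 0.56 ± 0.23 and Ifit1 at 0.33 ± 0.19), acute phase and complement genes in 8 of 12 (median 0.06, C1r at -0.47 ± 0.31 and Cfb at 0.29 ± 0.19), and cytokine, chemokine and receptor genes in 13 of 26 (median 0.004, and -0.003 with median scaling, Myd88 at 0.33 ± 0.21 and Cx3cl1 at -0.29 ± 0.19). Gbp2 differed by 0.90 from control rats and by 0.23 from pairfed rats.

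Blood, vessel and membrane markers also lay higher in ethanol rats, and their part in the other results was not tested beyond the covariate given at the end of this paragraph. Blood markers were higher in ethanol rats in 7 of 8 (median 0.32), with Hbb at 0.44 ± 0.22 and Hbb-b1 at 0.47 ± 0.23. The mean of 5 hemoglobin probes was 8.92, 9.999 and 10.40 in ethanol rats (lowest, median and highest), against 8.70, 9.49 and 9.80 in the other rats. S100a8, a neutrophil marker in the list, was at -0.03 and detected in 3 of 24 rats. Meningeal markers were higher in 12 of 14 (median 0.22, Col1a1 at 0.33 ± 0.16 and Mgp at 0.31 ± 0.20) and endothelial and mural markers in 7 of 11 (median 0.12, Vwf at 0.42 ± 0.21 and Tek at -0.29 ± 0.16). Choroid plexus markers were higher in 9 of 15 (median 0.04, Igfbp2 at 0.51 ± 0.48 and F5 at 0.58 ± 0.71), and ependymal markers in 4 of 5 (median 0.06, Tmem212 at 0.30 and Rarres2 at -0.16). The choroid plexus mean spanned 6.16 to 8.995 in ethanol rats, 6.35 to 8.25 in control rats and 6.24 to 8.46 in pairfed rats, so single rats of every diet read far higher than others. Its median was 0.32 against control rats and -0.23 against pairfed rats. The hemoglobin mean as a covariate was an alternative added after the data were seen. With it the list medians became 0.13 for microglia, 0.05 for meninges, 0.19 for antigen presentation, 0.08 for astrocytes and 0.08 for cytosolic ribosomal proteins. They became -0.22 for interneurons, -0.15 for neurons and -0.12 for oligodendrocytes. The sign for oligodendrocytes, choroid plexus (-0.17) and endothelial and mural cells (-0.05) thus turned. It also turned for neocortex (0.01), glutamate receptors (0.02), vesicle release (0.002), clock genes (0.003), lipid synthesis (0.004), cytokines (-0.005), the unfolded protein response (-0.03), chromatin modifiers (-0.002) and alcohol and antioxidant enzymes (-0.06).

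**Figure D3:**
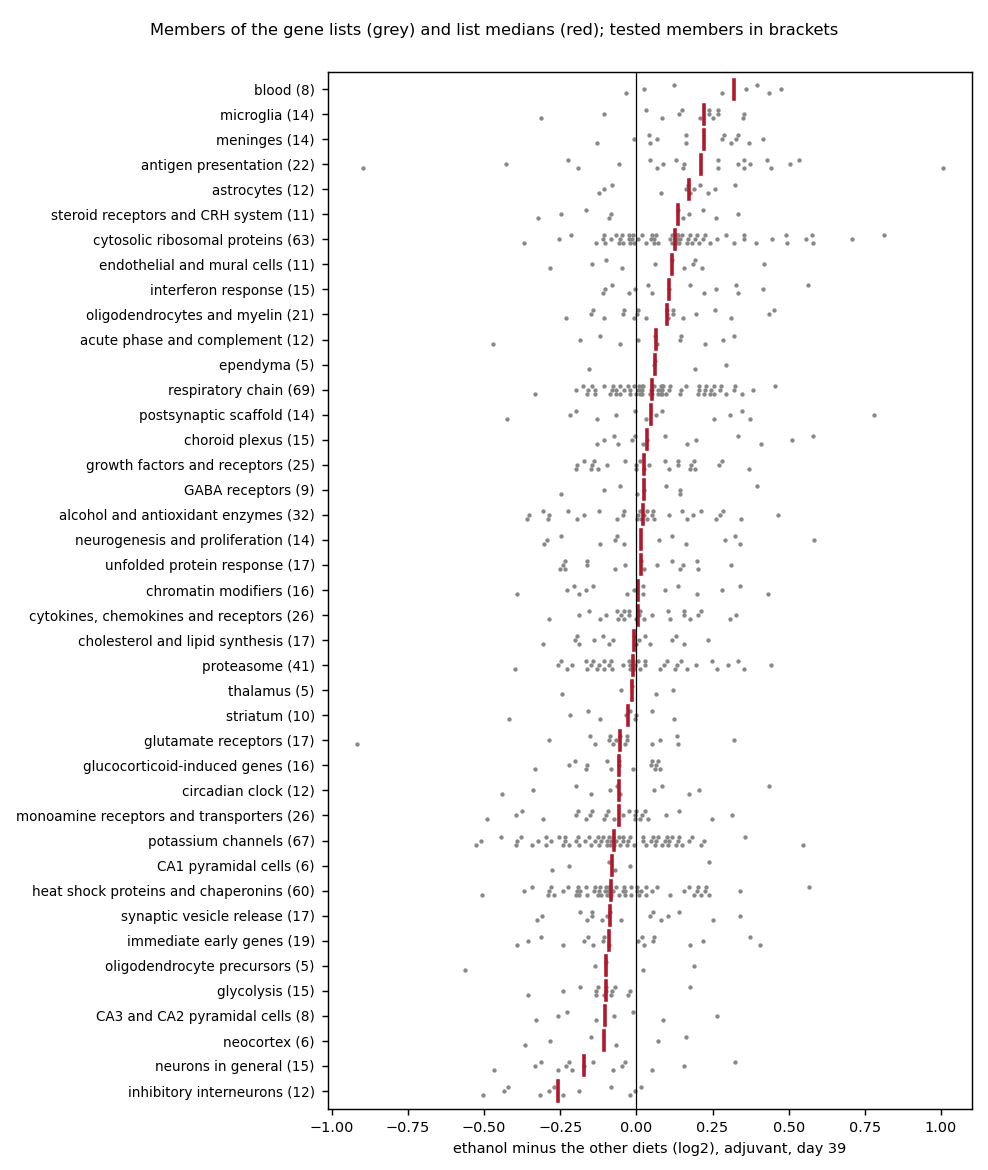
Ethanol minus the other diets on the log2 scale (x axis) for each tested member (grey points) of the 41 lists with at least 5 tested members (y axis, number tested in brackets), with each list median in red. Medians run from -0.26 for interneurons to 0.32 for blood, and every list has members on both sides of 0.

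Of 63 cytosolic ribosomal protein genes, 10 reached an unadjusted p below 0.05 (15.9%, against 5.67% of all probes), and all 10 lay higher in ethanol rats. Smaller lists had larger shares, such as blood markers with 25% and interneurons with 16.7%. In all, 44 of the 63 tested members were higher and 19 lower, with a median of 0.13. Rplp1, an acidic protein of the ribosomal stalk, had log2 signals of 13.01, 13.48 and 13.97 in ethanol rats (lowest, median and highest), against 11.76, 12.96 and 14.12 in the other rats. Each of the 9 ethanol rats exceeded the median of the others, while the highest and the lowest value of all belonged to pairfed rats, and the difference was 0.58 ± 0.17. Rpl13a, of the large subunit, had 11.06, 11.65 and 12.13 in ethanol rats, against 10.28, 10.96 and 11.72 in the others. All 9 ethanol rats again exceeded that median, and the difference of 0.58 ± 0.18 was 0.62 against control rats and 0.54 against pairfed rats. The other members at that p, named after their values were seen, were Rps14, Rps16, Rps12, Rps2, Rpl9, Rpl35, Rpl29 and Rps18, with differences of 0.32 to 0.71. All 10 were higher than both diets, Rps14 by only 0.01 over control rats. Being picked by p against the pooled diets largely sets their side of each diet. In saline rats at day 39, 1 of the 10 was higher, and the list median was -0.08. Ribosomal protein genes have many near-identical pseudogene copies, and whether probes read these was not tested.

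Genes for ribosomal proteins share a run of pyrimidines at their start, through which translation of their mRNA is controlled. The starts of Rplp1, Rpl13a and Rps14 are shown for that feature, from the RefSeq promoter table (GRCr8). They are given 5′ to 3′ on the strand of the gene, with 70 bases before the start and 30 from it on. Capitals mark CTTTC.
Rplp1: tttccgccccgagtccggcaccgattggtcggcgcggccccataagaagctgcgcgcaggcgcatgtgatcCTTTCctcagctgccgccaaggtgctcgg
Rpl13a: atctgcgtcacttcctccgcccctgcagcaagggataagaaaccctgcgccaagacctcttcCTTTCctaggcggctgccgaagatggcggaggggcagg
Rps14: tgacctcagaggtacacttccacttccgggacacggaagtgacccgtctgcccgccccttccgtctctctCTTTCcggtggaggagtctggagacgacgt
They lie at chr8:71290843-71290942 for Rplp1 (minus strand), chr1:104748884-104748983 for Rpl13a (minus strand) and chr18:56498190-56498289 for Rps14 (plus strand). Of the 63 tested ribosomal genes 52 matched the table. CTTTC on the gene's strand, within 20 bases before and 30 bases after the start, was found in 28 of the 52 (53.8%), against 2090 of all 33469 promoters (6.24%). Its reverse complement GAAAG was found in 0 of the 52 (0%), against 6.52% of all promoters. In Rpl13a the marked run begins at -8 from the annotated start, and so before it, in Rps14 at 0 and in Rplp1 at 1. A match describes the letters only.

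Other lists of cell metabolism shifted less. Respiratory chain genes were higher in 47 of 69 (median 0.05), with Ndufa7 of complex I at 0.45 ± 0.16 and Atp5f1c of the ATP synthase at -0.33 ± 0.12. Glycolysis genes were lower in 14 of 15 (median -0.10), with Pfkp, a phosphofructokinase, at 10.57, 11.21 and 11.44 in ethanol rats (lowest, median and highest), against 10.78, 11.51 and 12.07 in the others. All 9 ethanol rats lay below the median of the others, and the difference was -0.36 ± 0.14. Gapdh was at -0.24 ± 0.21. Proteasome genes were higher in 18 of 41 (median -0.01, Psme2 at -0.40 ± 0.19), heat shock and chaperonin genes in 20 of 60 (median -0.08, Hspa13 at -0.29 ± 0.12 and Hspa12a at -0.34 ± 0.17), and genes of the unfolded protein response in 9 of 17 (median 0.01, and -0.07 with median scaling, Pdia4 at -0.23 and Calr at -0.25). Cholesterol and lipid synthesis genes were higher in 7 of 17 (median -0.01, Sqle at -0.31 ± 0.15 and Msmo1 at 0.23 ± 0.14). Enzymes of alcohol breakdown and antioxidant defence were higher in 20 of 32 (median 0.02, and -0.05 with median scaling), with the glutathione peroxidases Gpx1 at 0.46 ± 0.18 and Gpx4 at 0.34 ± 0.16.

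**Figure D4:**
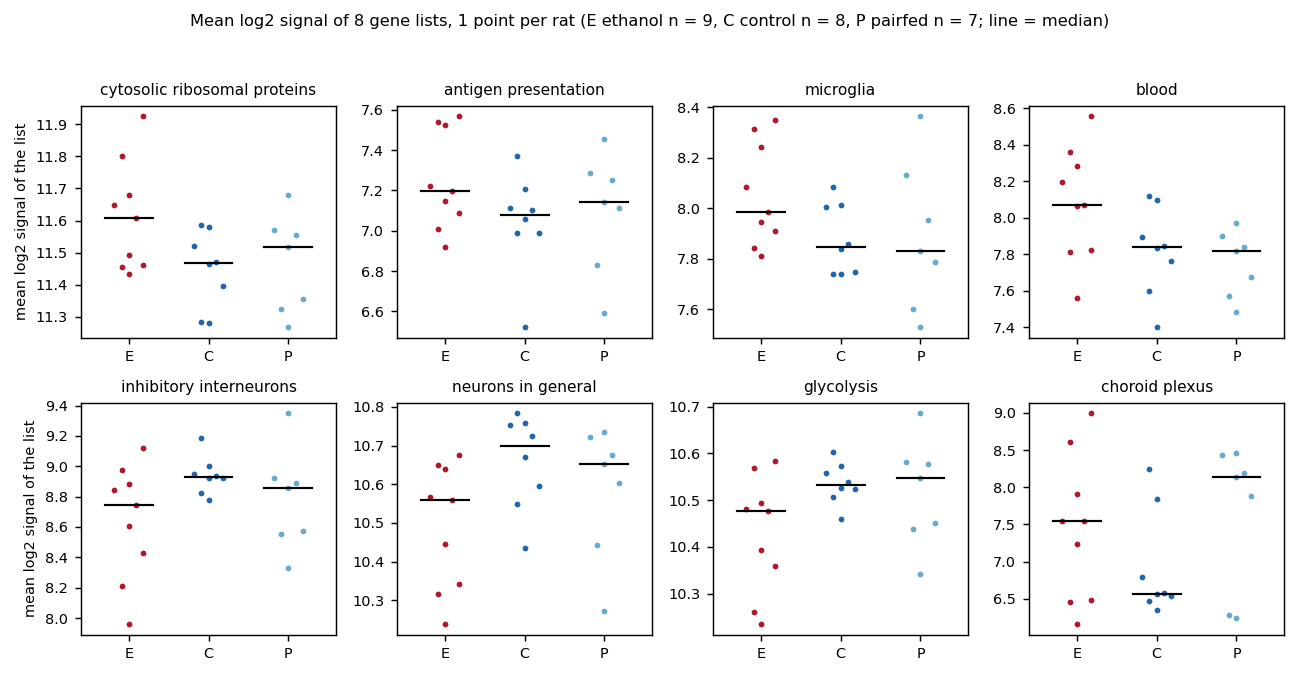
Mean log2 signal over the tested members of 8 lists (y axis), with 1 point per rat for ethanol (E, 9 rats), control (C, 8 rats) and pairfed (P, 7 rats) and a line at each median. The lists were picked for display after their values were seen. Groups overlap in every panel, and the choroid plexus means of single rats run from 6.16 to 8.995 in ethanol rats beside 6.24 to 8.46 in the others.

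Synaptic and signalling lists had medians near 0. Medians against control and against pairfed rats had opposite signs for the cytokine, GABA receptor, clock, unfolded protein response, chromatin, alcohol and antioxidant, lipid synthesis and proteasome lists, all between -0.12 and 0.05. Glutamate receptors were lower in 12 of 17 (median -0.05, with Gria4 at 0.32 ± 0.23 beside Grm7) and GABA receptors higher in 6 of 9 (median 0.02, and -0.06 with median scaling, Gabra4 at 0.40 ± 0.25 and Gabrd at -0.25 ± 0.20). Gabra4 differed by 0.77 from pairfed rats and by 0.02 from control rats. Monoamine receptors and transporters were lower in 18 of 26 (median -0.06), with the muscarinic receptor gene Chrm3, which the list also holds, at -0.38 ± 0.16. Htr1b was detected on 0 of 9 ethanol arrays and 4 of the 15 others, so its measured means of 4.89 in ethanol and 5.19 in other rats give no fold. Potassium channels were lower in 43 of 67 (median -0.07), with Kcnh7 at -0.51 ± 0.18 and Kcng2 at 0.55 ± 0.23. Vesicle release genes were lower in 10 of 17 (median -0.09, Rab3a at -0.33 ± 0.18 and Sv2b at 0.34 ± 0.20).

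Among postsynaptic scaffold genes, 8 of 14 were higher (median 0.05, and -0.02 with median scaling). Shank1, a scaffold of excitatory synapses, had 7.13, 7.81 and 8.21 in ethanol rats (lowest, median and highest), against 5.23, 7.31 and 7.92 in the other rats. Of the ethanol rats 8 of 9 lay above the median of the others, whose values were far more spread, and the difference was 0.78 ± 0.24 (limma adjusted p = 0.569). Camk2b, a kinase subunit of the same synapses, was on the other side, at 10.93, 12.84 and 13.18 in ethanol rats, against 12.41, 13.21 and 13.52 in the others, a difference of -0.42 ± 0.18.

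Stress and activity genes showed no common side in the main processing. With median scaling 15 of 16 glucocorticoid-induced genes were lower (median -0.13), as were 15 of 19 immediate early genes (median -0.08). Steroid receptors and the CRH system stayed higher in 6 of 11, and clock genes in 5 of 12. Glucocorticoid-induced genes were higher in 6 of 16 (median -0.06), with Bcl6 at -0.33 ± 0.22 and Klf9 at -0.20 ± 0.14. Steroid receptors and the CRH system were higher in 6 of 11 (median 0.14), with Mc4r at 0.33 ± 0.18, while Esr2 was detected on 0 of 9 ethanol arrays and on 1 of the 15 others. Immediate early genes were higher in 9 of 19 (median -0.09), with Egr1 at -0.36 ± 0.18 and Ier5 at -0.39 ± 0.17. A second Ier5 probe read -0.01. Clock genes were higher in 5 of 12 (median -0.06), with Bmal1 at -0.44 ± 0.19 and Dbp at 0.44 ± 0.21, on opposite sides.

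Growth factors and receptors were higher in 14 of 25 (median 0.02, Fgf2 at 0.37 ± 0.26 and Ntf3 at 0.28 ± 0.20), and genes of neurogenesis and proliferation in 7 of 14 (median 0.02, and -0.01 with median scaling). Igfbpl1, a secreted protein of young neurons, had 0.58 ± 0.29, which was 1.09 against control rats and 0.08 against pairfed rats. Neurod6, a transcription factor of pyramidal neurons in the same list, had -0.30 ± 0.17. Chromatin modifiers were higher in 8 of 16 (median 0.01, and -0.07 with median scaling), with the DNA methyltransferase Dnmt3a at -0.39 ± 0.17 and the deacetylase Hdac1 at 0.43 ± 0.22. Hdac1 differed by 0.84 from pairfed rats and by 0.02 from control rats, whereas Dnmt3a differed by -0.38 from pairfed rats and by -0.40 from control rats.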

How the data were processed

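Per the file headers, each array has 2 deposited columns, its signal and its detection p-value. The signal is log2 as deposited, read from its range, and the authors' value table is also log2. Per the labels' protocols, 250 ng of RNA was amplified in batches spread over groups, but which sample was in which batch is unstated.

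Background was corrected by normexp (offset 16, negative-control values inferred from detection p) and the result quantile-normalized over the 96 hippocampus arrays (neqc, limma 3.58.1, R 4.3.3, statmod 1.5.0). Differences on log2(signal + offset) understate folds of dim probes. Probes detected on at least 5 arrays were tested. Of 22502 probes 13787 have a gene symbol and 8715 are unnamed here. limma fitted 84 arrays in 12 groups with chip as a block, and ethanol was set against the equal-weight mean of control and pairfed. The prefrontal cortex had its own fit of 87 arrays. The number of arrays limits the precision.

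Named genes were the 12 higher and 12 lower named probes with the smallest p, at most 2 of lowest p in every list, the 3 with the smallest p in each further contrast, and called probes. Members, lists and rule were chosen with earlier results of these data known, and no list was tested as a set. The fit was tested on simulated data. Alternatives changed the background step, scaling, filter, chip term, samples, spread and covariates, or left out a rat.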

Additional observations from a re-analysis of the deposited data

Results flagged for a closer look

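In 342 groups of rats for the named genes, 25 had a single rat far from the others by Dixon's test, in 21 genes, of which 7 were ethanol, 12 control and 6 pairfed groups. Chance flags about 1 in 20 groups. Values are log2 signals beside the nearest rat of the same diet, and the causes were not tested.

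Among the leading genes, Thumpd1 read 8.20 in ethanol replicate 9 (next 9.40), Rplp1 read 12.27 in control replicate 1 (next 12.82) and Cacnb2 read 5.81 in control replicate 4 (next 6.94). Strada read 5.09 in control replicate 1 (next 6.36) and Lasp1 read 4.91 in control replicate 3 (next 5.22).

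Ier5 had a low rat in every diet, at 4.92 in ethanol replicate 8 (next 7.57), 6.46 in control replicate 8 (next 8.25) and 5.31 in pairfed replicate 3 (next 8.01). Pairfed replicate 3 was also low for Sv2b at 11.23 (next 13.57), Vwf at 5.67 (next 7.63) and Cst3 at 13.69 (next 14.34). Control replicate 8 was low for Sv2b at 12.05 (next 13.48) and Bcl6 at 8.59 (next 9.41).

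In ethanol rats, Camk2b read 10.93 in replicate 2 (next 12.36), Psmb8 read 7.35 in replicate 2 (next 8.07) and Gabrd read 7.15 in replicate 3 (next 8.17). Ethanol replicate 9 read 8.62 for Sqle (next 9.44) and 4.84 for Zdhhc6 (next 6.02). In control rats, high values were 9.55 for Gabrd in replicate 2, and 6.69 for Htr1b (next 5.65) and 11.49 for Lamp5 (next 10.73) in replicate 4. Low control values were 6.81 for Pdia4 in replicate 1 (next 7.57) and 10.78 for Pfkp in replicate 6 (next 11.35). In pairfed rats, Tmem212 read 4.55 in replicate 7 (next 6.37) and Tmco6 read 4.82 in replicate 4 (next 5.52).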

How the results depend on the processing

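The count of 0 calls between ethanol and the other diets held under 14 of 15 alternatives. With the replicate number as a replicate block it was 1 (ILMN_1371581, adjusted p = 0.0446). The numbers showed little pairing of rats. Deviations of same-numbered rats had a median correlation of 0.04 over 22 pairs, against -0.002 over 169 pairs of different number. Whether a weak pairing exists was not tested. Leaving out each rat gave 0 to 2 calls, with 0 for 19 of 24 rats, and Asb1 passed without ethanol replicate 7. Ethanol against control gave 1 call without background correction, on the authors' values and with trended spread (ILMN_1371581 each time), 1 other call with the 24 arrays alone (ILMN_1372032), and 0 with median scaling, array weights, all arrays or the hemoglobin covariate, against 2 otherwise and 0 to 4 leaving out a rat. Ethanol against pairfed gave 1 (Asb1) with detected probes as a covariate and 0 to 3 leaving out a rat. Pairfed against control gave 4 without background correction, on the authors' values and with the replicate block, 3 with trended spread or the hemoglobin covariate, 0 with median scaling, the 24 arrays alone or array weights, and 0 to 6 leaving out a rat. Alternatives for the pairs beyond background, scaling, the authors' values and chip were chosen after seeing the data. Of 114 named genes 110 kept their direction in every alternative run for them, the 24 leading genes included. These were 39 alternatives for 98 genes and 38 for 16 dim genes that the stricter filter removed, among them Chp2, Lasp1, Mybpc2 and Prtn3. Igfbp2 read -0.045 and Hbb-b1 -0.073 with the hemoglobin covariate, which holds Hbb-b1 itself. Ptpn4 read 0.0066 with all arrays and -0.135 to 0.0058 leaving out a rat, above 0 without control replicate 5 or ethanol replicate 9. Pde10a read -0.268 to 0.0195 leaving out a rat, above 0 without ethanol replicate 8. The cause was not tested. Without background correction the 24 differences had a median of 0.50 times their size. Median scaling moved all probes by -0.03 and turned the sign of 7 list medians, given beside those lists. Leaving out 1 rat, added after seeing the data for lists, gave medians of -0.13 to 0.24 for choroid plexus, -0.17 to 0.15 for thalamus, -0.11 to 0.06 for clock genes and 0.08 to 0.14 for ribosomal proteins. Medians also crossed 0 for striatum, cytokines, growth factors, GABA receptors, vesicle release, postsynaptic scaffold and neurogenesis. The same held for the unfolded protein response, chromatin, alcohol and antioxidant, lipid synthesis and proteasome lists. Dim probes, amplification batch and litter limit what these 24 arrays show.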
